A study of Mus musculus with 12 samples.

Results

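The genes of the mitochondrial ribosomal proteins were examined in Th9 cells treated with a cyclic lipopeptide, endomelipeptide A (EpA), with fatostatin, with both compounds, or with vehicle. The members were the genes whose symbol begins with *Mrpl* (large subunit) or *Mrps* (small subunit) followed by a digit and that had an FPKM above 0 in all 12 libraries. FPKM is the number of fragments per kilobase of exon, scaled to the mapped reads of the library. The members were thus chosen by symbol and selected on an FPKM above 0, and these are no findings. Of 79 genes with such a symbol, 78 met the rule, 49 *Mrpl* and 29 *Mrps*, among 32051 genes measured. The only gene left out was *Mrpl53*, which had 1 read in 1 EpA library and 0 in the other libraries, and 88.0% of whose exon bases also belong to the same-strand gene *Gm42688*. The member nearest to 0 was *Mrpl23-ps1*, a processed pseudogene, with 1.27 FPKM in its lowest library.

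Naive CD4+ T cells came from mouse spleens, per the study's methods of C57BL/6J or OT-II transgenic mice. They were activated through CD3 and CD28 with antibodies and polarized with IL-4 (10 ng/mL), TGF-β (1 ng/mL), anti-IL-12 and anti-IFN-γ, and RNA was taken on day 4. All groups received these agents. The groups were DMSO (the vehicle), EpA at 10 μM, fatostatin at 5 μM (labelled DMSO+fato), and EpA and fatostatin together, with 3 libraries in each. Fatostatin is an inhibitor of the activation of SREBP, the transcription factor of sterol and fatty acid synthesis, and the comparison of the 4 groups asks how EpA and this inhibitor act alone and in combination. Per the study's methods the mice were young adults matched for age and sex. The labels do not say whether the 3 libraries of a group came from separate mice or cultures, so p-values measure only the spread between these libraries.

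Mitochondria make the core membrane subunits of the respiratory chain on their own ribosomes. Their ribosomal RNAs are encoded by mitochondrial DNA, whereas every protein of the mitochondrial ribosome is encoded in the nucleus, translated in the cytosol and imported. The large subunit forms peptide bonds and the small subunit reads the mRNA. Some of these proteins descend from bacterial ribosomal proteins, and others were added during the evolution of mitochondria. T cells enlarge their mitochondrial translation machinery when they are activated. The mitochondrial ribosomal RNAs and mRNAs were not analysed here.

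The members lie on 17 chromosomes and so are not 1 locus. RefSeq promoter windows (GRCm38.p6, 250 bases before to 50 bases after each start) were found for 68 of the 78 members, as 74 windows. Windows were searched on both strands for the NRF1 motif (GCGCA, any base, then GCGC; NRF1 is a regulator of nuclear genes of mitochondria), CCGGAAG (the ETS family, which includes GABPA, also called NRF2), AAGATGGCG (YY1), the E box CACGTG (MYC and others) and the sterol element TCACNCCAC (SREBP), and none of the 60 matches overlapped a match of another motif. The stretches shown are the 120 bases before the start of 3 members that rose with EpA and of *Mrpl58*, which fell with fatostatin, among those that hold a match and cover no annotated exon. Capitals mark the matches to the NRF1 motif in *Mrpl45* and to the ETS motif in the others.
Mrpl45 (chr11:97315596-97315715, plus strand): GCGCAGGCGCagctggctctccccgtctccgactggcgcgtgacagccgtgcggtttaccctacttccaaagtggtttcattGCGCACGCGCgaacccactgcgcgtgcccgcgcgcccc
Mrps22 (chr9:98601680-98601799, minus strand): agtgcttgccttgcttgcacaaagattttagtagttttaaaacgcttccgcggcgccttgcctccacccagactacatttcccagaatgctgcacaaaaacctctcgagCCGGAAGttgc
Mrpl34 (chr8:71464806-71464925, plus strand): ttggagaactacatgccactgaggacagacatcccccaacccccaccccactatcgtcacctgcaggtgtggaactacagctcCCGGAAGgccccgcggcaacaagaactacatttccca
Mrpl58 (chr11:115403632-115403751, plus strand): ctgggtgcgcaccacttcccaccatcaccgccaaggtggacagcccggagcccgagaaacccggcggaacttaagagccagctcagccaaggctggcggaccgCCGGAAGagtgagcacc

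The ETS motif was in 33.8% of the member windows, against 17.8% of the 12456 windows of tested genes and 8.86% of all 32851 windows in the table. The NRF1 motif was in 17.6%, against 9.94% of windows of tested genes and 4.60% of all windows. The YY1 motif was in 10.8%, against 2.98% and 1.40%. The E box was about as frequent in member windows (9.46%) as in windows of tested genes (9.74%; all windows 7.15%), and the sterol element was in 0 of the 74, against 1.16% and 1.24%. Some genes have several overlapping windows, so that 1 E box of *Mrpl2* is counted 3 times and the 60 matches lie at 58 positions. Counted once per gene, the shares of members and of tested genes were 36.8% and 20.6% for the ETS motif, 19.1% and 11.6% for NRF1, 11.8% and 3.61% for YY1 and 7.35% and 11.5% for the E box. The members whose transcripts rose with EpA held any of the 5 motifs in 48.3% of 29 windows, and the members that did not pass the test held one in 66.7% of 45 windows. A match is a description of letters, and binding was not measured.

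The libraries held 36019740 to 43656682 reads on genes, as recovered from the FPKM values and exon lengths, and the members were covered by 27 to 4701 reads in a library. The first library of the fatostatin group and the first of the combined group stood apart, with the lowest sums of FPKM over all genes (280099 and 279720, against 284239 to 286956 in the other libraries) and the lowest member levels within their groups. Counts of the comparisons with fatostatin, and the named members that lost or gained a call, are also given without these 2 libraries, an alternative chosen after the data were seen. Of 6 T cell markers, 5 were in the table and had summed levels of 422 to 430 FPKM in DMSO, 366 to 374 in EpA, 423 to 436 with fatostatin and 363 to 367 with both. They did not move together: *Cd4* was higher in EpA (86.2 to 87.1 FPKM, against 78.1 to 78.4 in DMSO), whereas *Cd3d*, *Cd3e*, *Cd3g* and *Cd28* were lower, all without overlap. The 4 markers of Th9 polarization moved in both directions with EpA, each without overlap between the groups. *Il9*, the cytokine that defines Th9 cells, was at 51.0 to 57.7 FPKM in DMSO and 620 to 652 in EpA, and the transcription factor *Batf* at 74.3 to 77.2 and 93.1 to 96.7, whereas the transcription factors *Irf4* (155 to 158 in DMSO, 143 to 145 in EpA) and *Gata3* (47.8 to 52.6 and 45.04 to 47.4) were lower. Markers of B cells summed to 5.19 to 8.62 FPKM over the 12 libraries, mostly *Cd79b*, and those of CD8 T cells to 6.98 to 10.2, mostly *Cd8b1*, whereas markers of NK, myeloid and erythroid cells each summed to less than 1 FPKM, with *Hbb-bs* at 0 in all 3 DMSO libraries. Some low markers of other cells were lower in EpA than in DMSO, again without overlap. *Cd8a* was at 1.60 to 1.93 FPKM in DMSO and 0.766 to 0.829 in EpA (1.44 to 1.60 with fatostatin, 0.430 to 0.577 with both). *Foxp3*, the marker of regulatory T cells, was at 1.78 to 1.93 and 1.01 to 1.32 (1.53 to 1.89 with fatostatin, 0.970 to 1.07 with both). *Cd79a* was at 0.712 to 0.840 and 0.397 to 0.568. Others did not follow: *Cd8b1* (7.11 to 7.90 in DMSO, 7.02 to 7.80 in EpA) and *Cd79b* (5.08 to 6.91 and 4.66 to 5.43) overlapped. The myeloid marker *Lyz2*, near 0, was higher in EpA without overlap (0 to 0.0699 in DMSO, 0.115 to 0.229 in EpA). The part of these differences in the results below was not tested. In these bulk samples, a change in the makeup of the culture and a change in RNA per cell cannot be told apart.

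In vehicle-treated cells the members were expressed at moderate levels that differed little between libraries. Mean FPKM ran from 2.77 ± 0.10 for *Mrpl33* to 72.9 ± 5.29 for *Mrps21* (SD, n = 3), with a median of 17.5 FPKM, and the median coefficient of variation between the 3 DMSO libraries was 3.13%. Proteins of the cytosolic ribosome had a median of 443.9 FPKM over 79 genes and nuclear-encoded subunits of the respiratory chain a median of 54.2 FPKM over 84. The median was 20.1 FPKM for *Mrpl* and 13.8 FPKM for *Mrps* genes, although the most abundant member was an *Mrps* gene. FPKM is scaled here to the length of all annotated exons of a gene, not to that of the transcript expressed. This length was 739 bases for *Mrps21* and 7326 for *Mrpl33*, so levels can be compared between genes only roughly.

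The top 3 were *Mrps21*, the counterpart of bacterial S21, with 77.1, 66.9 and 74.5 FPKM in the DMSO libraries, *Mrpl12*, the flexible stalk protein that is also reported to bind the mitochondrial RNA polymerase, with 60.8, 57.0 and 58.7, and *Mrpl18*, which is associated with 5S rRNA import, with 55.04, 53.6 and 52.0 FPKM. The ranges of *Mrps21* and *Mrpl12* did not overlap, nor did those of *Mrpl12* and *Mrpl18*. The lowest were *Mrps25* (4.22 ± 0.03 FPKM), *Mrpl23-ps1* (3.06 ± 2.83 FPKM) and *Mrpl33*. The spread of *Mrpl23-ps1* was nearly as large as its mean, with 1.27, 6.33 and 1.59 FPKM in the DMSO libraries, and as a processed copy its reads may be split with *Mrpl23*. *Mrps25* shares 69.8% of its exon bases with *Nr2c2* on the opposite strand. In all, 32 members share exon bases with another gene and 46 do not, and since the strand setting of the counting was not given in the sources used here, values of the overlapping genes are uncertain.

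**Figure D1:**
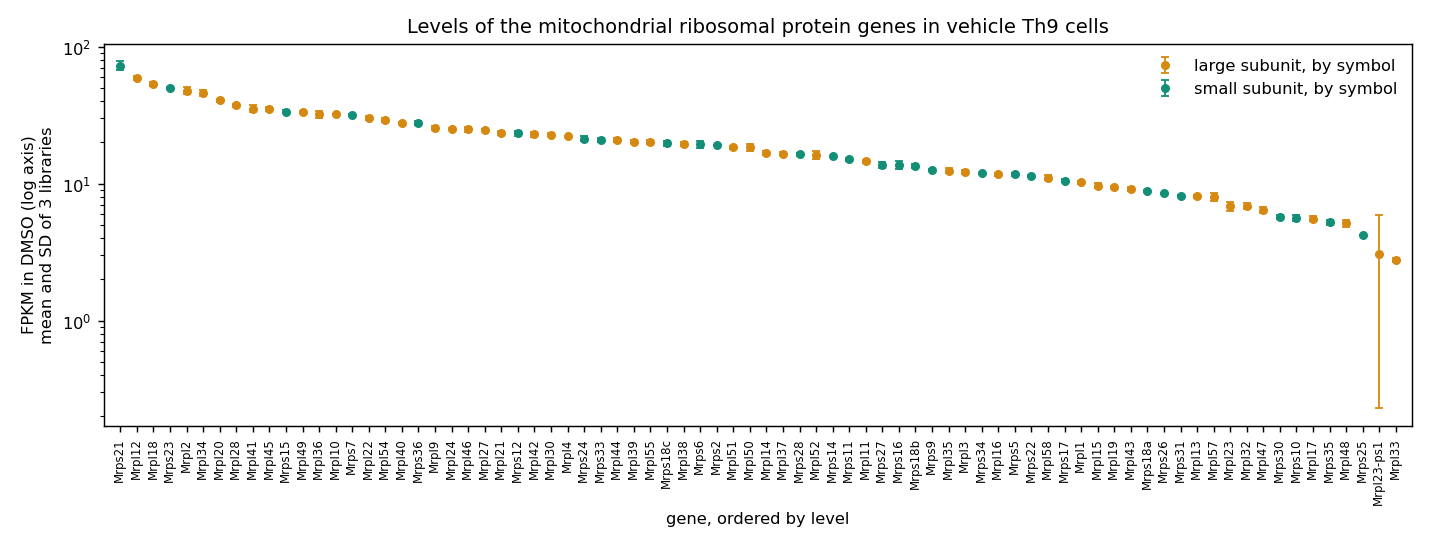
Mean FPKM of each member in the 3 DMSO libraries (y axis, log scale, bars SD) in order of level (x axis), with large subunit genes in orange and small subunit genes in green by symbol. The levels run from 72.9 FPKM for Mrps21 to 2.77 for Mrpl33, and Mrpl23-ps1 has by far the widest bar.

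With EpA, 32 of the 78 members rose and 0 fell (limma, adjusted p below 0.05 over 13733 tested genes), while 14.3% of all tested genes rose and 13.1% fell. Of the members, 68 had a fold change above 0, and the median log2 fold change was 0.11 (7.82% higher), against 0.00 for all tested genes. The changes were small: the quartiles were 0.06 and 0.19, the range was from -0.18 to 0.33, and 0 members passed a 1.5-fold threshold as well (1.44% of tested genes did upward and 1.94% downward). The 3 EpA libraries lay above the 3 DMSO libraries in 46 members, against 21.7% of tested genes, and below them in 0 (20.8%). For the absence of falling members, limma gave 0 members with an unadjusted p below 0.05 in that direction, and limma voom on recovered reads called 0. The summed FPKM of the members was 1607, 1563 and 1578 in the DMSO libraries and 1722, 1731 and 1725 in the EpA libraries.

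The largest rise was in *Mrpl50* (chr4:49512596-49521093), a mitochondria-specific protein of the large subunit. It had 18.2, 17.3 and 19.6 FPKM in DMSO and 23.9, 22.9 and 22.6 in EpA, a log2 fold change of 0.33 ± 0.05 (SE, n = 3 per group; limma adjusted p = 0.000383). All EpA libraries lay above all DMSO libraries. *Mrpl1* (chr5:96209493-96266727), the counterpart of the bacterial L1 stalk protein, went from 10.5, 10.1 and 10.1 FPKM to 12.6, 13.1 and 12.4, a log2 fold change of 0.31 ± 0.03 with the smallest limma adjusted p of the family, 2.49e-05. The change amounted to 24.2%, and the groups did not overlap.

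*Mrps18b* (chr17:35910379-35916389), 1 of 3 mammalian relatives of bacterial S18, of which *Mrps18c* is counted here as the bacterial counterpart and *Mrps18a* and *Mrps18b* as mitochondria-specific, rose from 13.5, 13.9 and 13.0 FPKM to 17.3, 15.6 and 16.7 (log2 fold change 0.30 ± 0.05), and 30.5% of its exon bases are shared with the antisense gene *Gm16279*. *Mrpl45* (chr11:97315716-97329920), which sits at the exit of the peptide tunnel and tethers the ribosome to the inner membrane, rose from 36.6, 33.9 and 34.6 FPKM to 42.6, 41.2 and 41.3 (0.25 ± 0.03, limma adjusted p = 8.34e-05). For both, the 2 groups did not overlap. The other members among the 10 with the largest rise were *Mrpl9* and *Mrpl38* (both 0.29), *Mrps6* (0.27), *Mrpl34* (0.27), *Mrpl47* (0.27) and *Mrps22* (0.26), which belong to both subunits and include counterparts of bacterial proteins (*Mrpl9*, *Mrpl34*, *Mrpl47*, *Mrps6*) and mitochondria-specific ones (*Mrpl38*, *Mrps22*). Of *Mrps6*, 19.9% of the exon bases are shared with *Gm49711* and 10.4% with *Slc5a3*, both on the same strand, and of *Mrpl47* 13.9% with *Ndufb5* and 10.2% with *Actl6a*, both on the opposite strand.

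*Mrpl12*, the stalk protein, rose from 60.8, 57.0 and 58.7 FPKM to 68.8, 69.8 and 69.4 (0.24 ± 0.05, limma adjusted p = 0.00347), while its partner at the stalk base, *Mrpl10*, did not pass the test with 0.03 ± 0.04 (DMSO 31.6 to 32.3 FPKM, EpA 30.9 to 35.3). *Mrps12*, the counterpart of the S12 protein of the decoding centre, had 0.17 ± 0.07 (limma adjusted p = 0.12, or 0.022 without the 2 libraries that stood apart, which change the estimate of the spread), and *Mrpl58*, the peptidyl-tRNA hydrolase built into the large subunit, 0.07 ± 0.06. The most abundant member, *Mrps21*, was at 79.0, 71.3 and 72.4 FPKM in EpA, within the range of DMSO apart from 1 library, with 0.03 ± 0.05. *Mrpl18* rose (0.15 ± 0.05), as did *Mrps25* (0.16 ± 0.05), whereas *Mrpl33* had 0.15 ± 0.06 with a limma adjusted p of 0.09 and *Mrpl23-ps1* 0.25 ± 0.68. The lowest fold change was that of *Mrpl23*, a member of the large subunit, with -0.18 ± 0.08 (limma adjusted p = 0.15). Of the calls named, that of *Mrpl18* was lost in 12 of 23 alternatives (limma adjusted p up to 0.15), that of *Mrps25* in 5 and that of *Mrps6* in 2. Across the members, level in DMSO and fold change had a Spearman's rho of 0.06 (78 genes of the same libraries, a description).

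**Figure D2:**
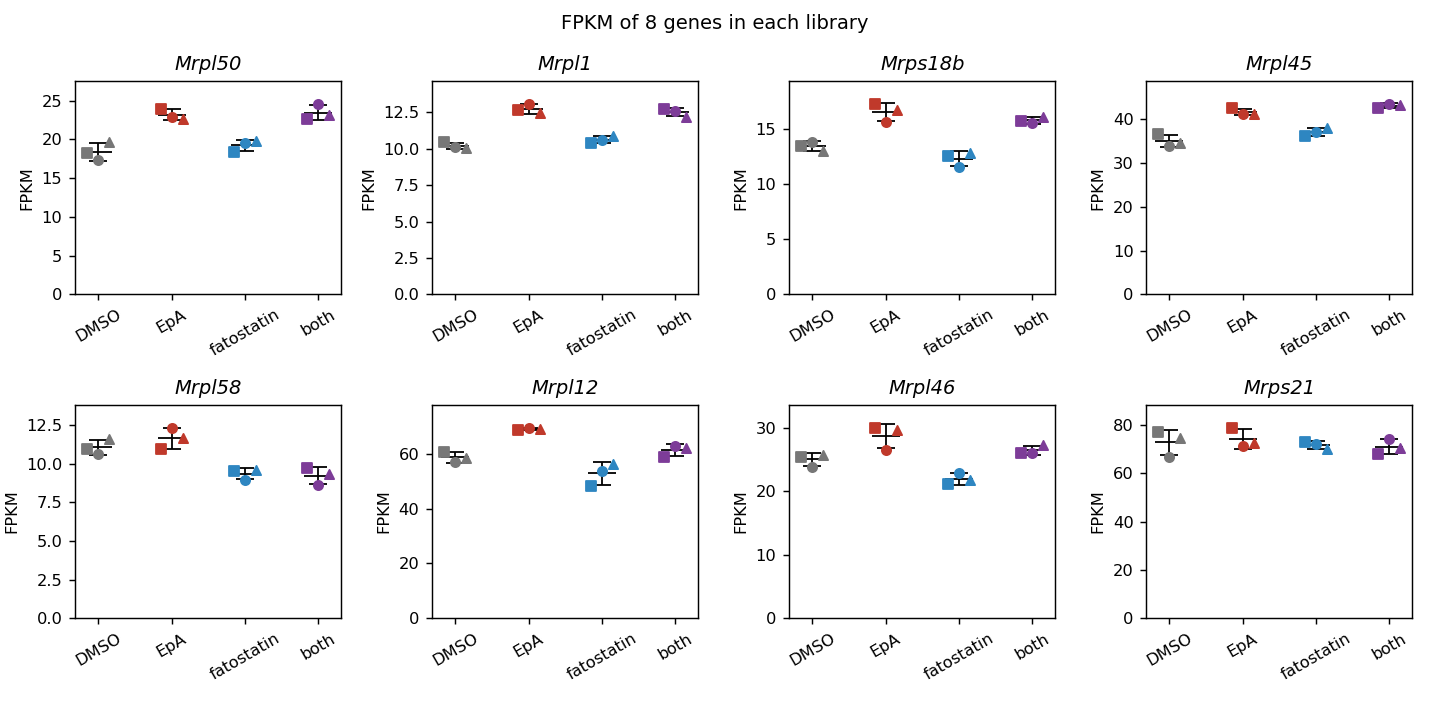
FPKM (y axis, from 0) of 8 members in each library of the 4 groups (x axis), with squares, circles and triangles for libraries 1, 2 and 3, and black bars for the mean and SD of 3. Mrpl50, Mrpl1, Mrps18b, Mrpl45 and Mrpl12 are higher in both groups that received EpA than in the matching group without it, Mrpl58 is lower in both groups that received fatostatin, and Mrps21 overlaps in all 4 groups.

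Genes of both subunits rose with EpA, against 14.3% of all tested genes that rose and 13.1% that fell. By symbol, 22 of 49 *Mrpl* genes rose with a median log2 fold change of 0.13, and 10 of 29 *Mrps* genes with a median of 0.09. Of the *Mrps* symbols, 3 do not name a small subunit protein: *Mrps18a* and *Mrps30* are built into the large subunit, and *Mrps36* is now known as a part of the α-ketoglutarate dehydrogenase complex. *Mrps18a* (0.16 ± 0.05, call lost in 4 of 23 alternatives) and *Mrps30* (0.23 ± 0.05) rose and *Mrps36* did not pass the test (-0.02 ± 0.05). By structure, 24 of 50 large subunit genes rose (median 0.13) and 8 of 26 small subunit genes (median 0.08). The ratio of summed FPKM, *Mrpl* to *Mrps*, was 1.96, 1.99 and 1.98 in DMSO and 2.01, 2.07 and 2.07 in EpA. The lead of the large subunit was small, 0.04 between the medians by symbol, and it was 0.01 without the first EpA library, 0.02 without the first DMSO library and 0.03 without the second EpA library. The difference between the subunits was not tested.

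Split by ancestry, 18 of 46 members with a bacterial counterpart rose (median 0.09) and 14 of 30 mitochondria-specific members (median 0.14). Among the 46 members that share no exon bases with another gene, 18 rose (median 0.09). Many members start close to another gene: 19 of the 77 protein-coding members (24.7%) have a protein-coding gene on the opposite strand that starts within 1000 bases and overlaps by at most 100, against 11.5% of 11846 tested protein-coding genes. Another 13 members start within 1000 bases of an opposite-strand gene that they overlap further, among them *Mrpl46* and *Mrps11*, which start 412 bases apart, and were not counted. Of the 19 neighbours, all outside the family, *Psma2* and *Apba3* rose with EpA and *Ncapd2* fell, genes named after their values were seen, against 14.3% and 13.1% of all tested genes, and the median log2 fold change was -0.01. *Mrpl50* rose by 0.33 while its neighbour *Zfp189*, which starts 83 bases away, had 0.04 and did not pass the test, but with fatostatin in both groups *Zfp189* rose by 0.51 with EpA (limma adjusted p = 0.00187) and *Mrpl50* by 0.29.

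**Figure D3:**
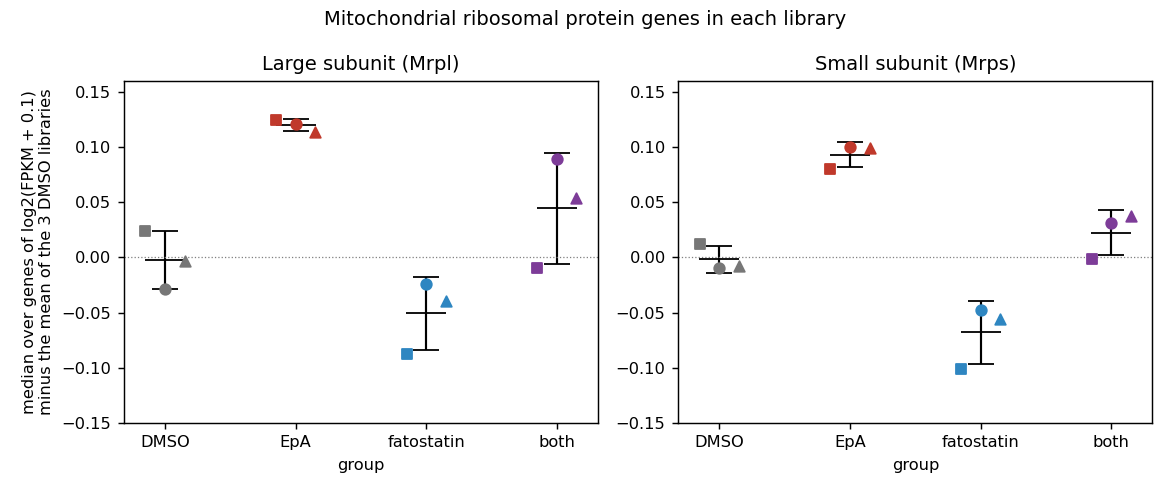
Median over the large subunit genes (left) and small subunit genes (right), by symbol, of log2(FPKM + 0.1) minus the mean of the 3 DMSO libraries (y axis) for each library of the 4 groups (x axis), with squares, circles and triangles for libraries 1, 2 and 3, and bars for mean and SD. EpA libraries lie between 0.08 and 0.12, and the first libraries of the fatostatin and combined groups are the lowest of their groups in both panels.

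With fatostatin alone, the members were slightly lower. In this comparison 5 of 78 fell and 0 rose, against 6.31% of tested genes that fell and 7.69% that rose, so the share that fell was near that of all tested genes. The direction was more uniform than the calls: 62 of 78 had a fold change below 0, with a median of -0.07 (all tested genes 0.01), and the fatostatin libraries lay below the DMSO libraries in 28 members, against 14.8% of tested genes, and above them in 1 (16.5%). Among members above 0, limma gave 1 with an unadjusted p below 0.05, and voom called 0. The summed FPKM was 1474, 1537 and 1538. The 5 calls became 1 without the first fatostatin library, 2 without the second, 3 without its last, 2 without the first DMSO library, 0 without the last DMSO library, 3 without the last EpA library and 9 without the first library of the combined group, and 3 when both libraries that stood apart were left out (median -0.05).

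The largest fall was in *Mrpl58* (chr11:115403752-115412674), with 10.99, 10.6 and 11.6 FPKM in DMSO and 9.51, 8.95 and 9.62 with fatostatin, a log2 fold change of -0.24 ± 0.06 (limma adjusted p = 0.013). The groups did not overlap. *Mrps24* fell by 0.23 (SE 0.07), *Mrpl46*, a mitochondria-specific large subunit protein, by 0.19 (SE 0.05), *Mrpl2*, whose bacterial counterpart lies near the peptidyl transferase centre, by 0.16 (SE 0.04) and *Mrps2* by 0.08 (SE 0.02). Of *Mrps24*, 15.4% of the exon bases are shared with *Urgcp*, and of *Mrpl46* 12.2% with another member, *Mrps11*, on the opposite strand. Of 23 alternatives, the call was lost in 14 for *Mrps2*, 12 for *Mrps24*, 7 for *Mrpl2*, 6 for *Mrpl46* and 2 for *Mrpl58*. *Mrpl12*, at 48.5, 53.8 and 56.6 FPKM, lay below all DMSO libraries but did not pass the test (-0.15 ± 0.05, limma adjusted p = 0.055), and its lowest value was in the library that stood apart. Without the 2 libraries that stood apart, *Mrpl12* had -0.09 ± 0.03 (limma adjusted p = 0.087), *Mrpl58* was still called (-0.25), and *Mrps24* (-0.23), *Mrpl46* (-0.16), *Mrpl2* (-0.13) and *Mrps2* (-0.07) were not, with limma adjusted p of 0.052 to 0.12.

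With fatostatin in the presence of EpA, 10 of 78 members fell and 0 rose relative to EpA alone, against 6.79% and 9.22% of tested genes. The fold change was below 0 in 70 members, the median was -0.07 (all tested genes 0.01), and the combined libraries lay below the EpA libraries in 30 members, against 14.4% of tested genes, and above them in 1 (18.9%). Limma gave 0 rising members with an unadjusted p below 0.05, and voom called 0. The summed FPKM was 1575, 1667 and 1653, and without the 2 libraries that stood apart 7 members fell (median -0.06). The count was 5 without the first library of the combined group, 6 without its last, 6 without the first EpA library and 4 without the last EpA library. It was 18 when libraries were scaled by the median of ratios.

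*Mrpl58* again fell most, from 10.97, 12.4 and 11.7 FPKM with EpA to 9.71, 8.64 and 9.36 with both (-0.33 ± 0.06, limma adjusted p = 0.00179). All 6 libraries with fatostatin lay below all 6 without it. *Mrpl27*, the counterpart of a bacterial protein at the peptidyl transferase centre, fell from 28.4, 26.1 and 31.8 FPKM to 21.6, 25.1 and 25.2 (-0.26 ± 0.07). *Mrpl18* fell by 0.20 (SE 0.05), *Mrps34*, a mitochondria-specific small subunit protein, by 0.17 (SE 0.04) and *Mrpl12* by 0.17 (SE 0.05), and *Mrps34* shares 63.4% of its exon bases with *Mapk8ip3* on the opposite strand and 37.0% with *Nme3* on the same strand. The calls of *Mrpl27* and *Mrpl12* were each lost in 7 of 23 alternatives, that of *Mrpl18* in 6 and that of *Mrps34* in 4. Those of *Mrpl27* (-0.19, limma adjusted p = 0.10) and *Mrpl18* (-0.14, limma adjusted p = 0.073) were among the calls lost without the 2 libraries that stood apart. The 2 fatostatin comparisons have no library in common. The falling members of both were *Mrpl58* and *Mrps2*, which are 40% of the 5 and 20% of the 10 (all tested genes called lower 62.8% and 58.3%), and 57 of the 78 members were below 0 in both. Across the members the fold changes of these comparisons had a Pearson's r of 0.14 and a Spearman's rho of 0.28 (all tested genes 0.35 and 0.49), a description.

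**Figure D4:**
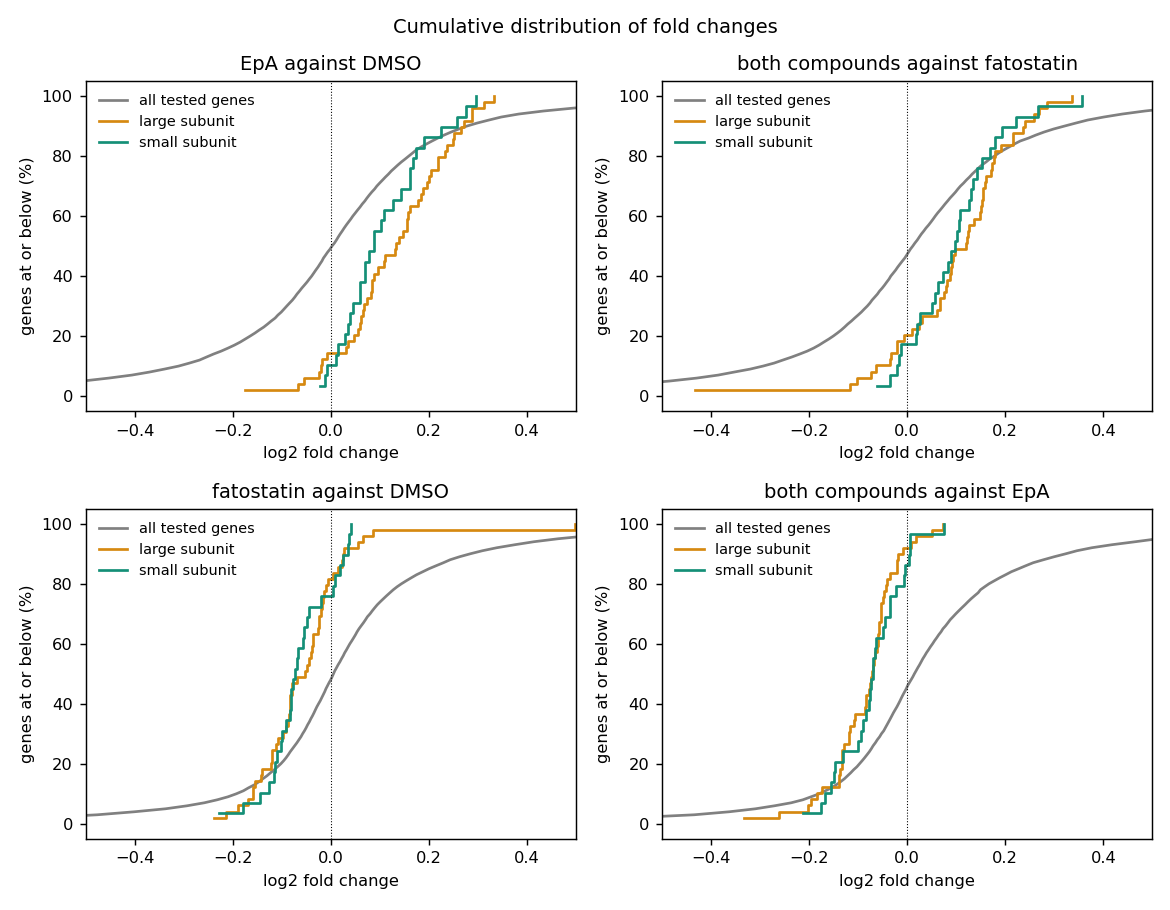
Share of genes (y axis, %) at or below each log2 fold change (x axis, cut at -0.5 and 0.5) for the 49 large and 29 small subunit genes by symbol and all 13733 tested genes, in 4 comparisons. The member curves lie to the right of the grey curve at their middle in both EpA comparisons and to the left in both fatostatin comparisons.

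When fatostatin was present in both groups, EpA raised 30 of 78 members and lowered 0, against 16.2% and 13.3% of tested genes, with 63 above 0 and a median of 0.10 (all tested genes 0.01). The combined libraries lay above the fatostatin libraries in 38 members, against 22.5% of tested genes, and below them in 1 (19.0%). Limma gave 0 falling members with an unadjusted p below 0.05, and voom called 0. By symbol, 21 of 49 *Mrpl* and 9 of 29 *Mrps* genes rose (medians 0.12 and 0.10), and the ratio of summed FPKM was 1.96, 1.98 and 1.96 with fatostatin and 2.01, 2.03 and 2.04 with both. The count was 20 without the last library of the combined group and 25 without the 2 libraries that stood apart.

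*Mrps18b* led, with 12.6, 11.5 and 12.8 FPKM under fatostatin and 15.7, 15.5 and 16.1 with both (0.36 ± 0.05, limma adjusted p = 0.000163). *Mrpl38* rose from 17.1, 18.8 and 18.4 FPKM to 21.9, 22.3 and 24.5 (0.34 ± 0.05) and *Mrpl50* from 18.4, 19.5 and 19.7 to 22.6, 24.6 and 23.2 (0.29 ± 0.05). The groups did not overlap in any of the 3. *Mrpl46* (0.27 ± 0.05) and *Mrps28* (0.27 ± 0.07) were next, and *Mrps28* was lowest in the library that stood apart (12.8, 14.9 and 15.6 FPKM with fatostatin, 17.0, 16.5 and 18.6 with both). The call of *Mrps28* was lost in 3 of 23 alternatives, among them that without the 2 libraries that stood apart (0.19 ± 0.06, limma adjusted p = 0.053). The EpA comparisons without and with fatostatin have no library in common. In both, 21 members rose, 65.6% of the 32 and 70.0% of the 30, and 31 of the 32 had the same sign with fatostatin. The overlap was near that of all tested genes called higher, of which 76.1% and 67.1% were called in both and 97.4% had the same sign. Across the 78 members the fold changes had a Pearson's r of 0.51 and a Spearman's rho of 0.61 (all tested genes 0.48 and 0.62), a description over genes that are not independent.

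**Figure D5:**
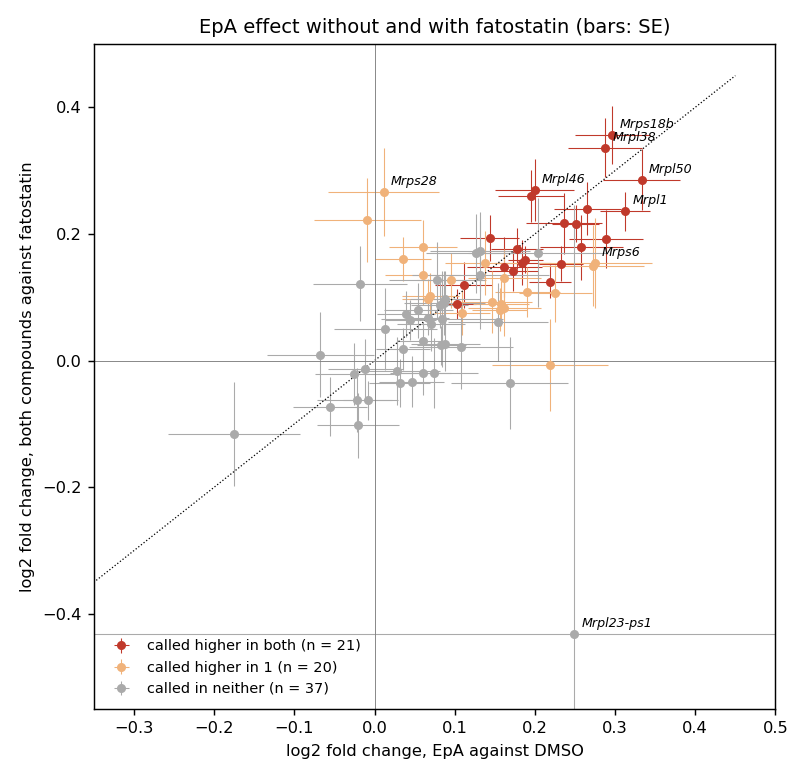
Log2 fold change of each member with EpA in the absence (x axis) and presence (y axis) of fatostatin, with SE bars and a dotted line of equal change. The 21 members called higher in both lie near that line, 20 were called in 1 comparison and 37 in neither, and the bars of Mrpl23-ps1 run past the frame.

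Whether fatostatin altered the EpA rise was tested as the difference between the 2 EpA effects. This called 0 of 78 members, against 0.0364% of tested genes higher and 0.00728% lower. Limma gave 5 members (6.41%) with an unadjusted p below 0.05, against 7.89% of tested genes, and voom called 0. The median difference was -0.02 and depended on single libraries: it was -0.002 without the first library of the combined group, -0.005 without the second DMSO library, -0.008 without the second fatostatin library, -0.03 without the second library of the combined group or the first DMSO library, -0.04 without the first fatostatin library and -0.02 without both libraries that stood apart. The 3 with the smallest p were *Mrps28*, whose EpA effect was larger with fatostatin by 0.26 (95% interval 0.04 to 0.47; limma adjusted p = 0.55; 0.18 without the 2 libraries that stood apart), *Mrpl19*, smaller with a difference of -0.09 (-0.17 to -0.01), and *Mrpl28*, larger by 0.13 (0.02 to 0.23). The smallest limma adjusted p of any member was 0.55, so none of these 3 was called. Of *Mrpl19*, 36.0% of the exon bases are shared with *Gcfc2* on the opposite strand. For *Mrpl50* the difference was -0.05 (-0.20 to 0.10) and for *Mrpl1* -0.08 (-0.17 to 0.02), so these intervals include 0 and do not show that the effects are equal. Between the combined group and DMSO, a comparison given without a test, the median log2 difference of the members was 0.04, with a range of -0.26 to 0.35, and 51 members were above 0.

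The other genes of the mitochondrial translation system gave calls in both directions, to be read against the 14.3% of all tested genes that rose and the 13.1% that fell with EpA. Of 5 mitochondrial ribosomal proteins with other symbols, *Chchd1* (0.20 ± 0.05) and *Ptcd3* (0.20 ± 0.03), both of the small subunit, rose with EpA and 0 fell. *Ptcd3* went from 15.3, 15.7 and 15.1 FPKM to 18.04, 17.1 and 17.8. Of 26 assembly factors 3 (11.5%) rose, a share below that of all tested genes, and 0 fell (median 0.07), among them the RNA-binding protein *Fastkd2* (0.19 ± 0.05) and the pseudouridine synthase *Rpusd4* (0.16 ± 0.05). Of 16 tested translation factors 3 rose and 1 fell: *Tufm*, the elongation factor that brings aminoacyl-tRNA to the ribosome, rose from 61.4, 59.1 and 62.0 FPKM to 71.5, 73.5 and 71.6 (0.25 ± 0.03), *Lrpprc*, which stabilizes mitochondrial mRNAs, rose (0.16 ± 0.04), and *Oxa1l*, which inserts new proteins into the inner membrane, fell (-0.11 ± 0.03).

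Of 9 genes of mitochondrial DNA transcription and maintenance, *Tfb2m*, the transcription initiation factor, rose (0.10 ± 0.03) and *Polg2*, the accessory subunit of the DNA polymerase, fell (-0.20 ± 0.06). Of 7 tested regulators of mitochondrial biogenesis, *Myc* rose from 45.3, 44.96 and 44.2 FPKM to 52.1, 51.1 and 52.6 (0.21 ± 0.02, limma adjusted p = 5.77e-05), *Yy1* rose by 0.06 ± 0.02, and 0 fell. Of the 23 alternatives, the call of *Rpusd4* was lost in 10, those of *Polg2* and *Yy1* in 7 each, that of *Tfb2m* in 6, that of *Fastkd2* in 3 and that of *Oxa1l* in 0. Cytosolic ribosomal proteins went the other way, with 2 of 78 higher (2.56%), 16 lower (20.5%) and a median of -0.04 with EpA. Nuclear-encoded respiratory chain subunits had 6 of 81 higher (7.41%), 5 lower (6.17%) and a median of 0.01, both shares below those of all tested genes. With fatostatin in both groups, EpA gave 2 higher and 18 lower among the cytosolic (2.56% and 23.1%) and 10 higher and 9 lower among the respiratory genes (12.3% and 11.1%), against 16.2% and 13.3% of tested genes. The difference between these lists and the mitochondrial ribosomal proteins was not tested.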

How the data were processed

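RNA-seq was performed on 12 libraries of mouse Th9 cells. Per the study's methods, the authors used HISAT2 for alignment to GRCm38 and deposited FPKM made from reads counted per gene, and used DESeq2 for their own tests. The annotation release and strand setting were not given in the sources used here. The table had 32352 lines for 32051 genes, 1 line per gene was kept, and 0 columns belonged to no sample. Exon lengths came from a GENCODE annotation of GRCm38. With them, 98.4% to 98.6% of the values of a library were whole reads (tolerance 0.05 reads).

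Groups followed the treatment labels. Values were analysed as log2(FPKM + 0.1), so fold changes of low genes are understated. All genes averaging 0.1 FPKM or more (13733, all 78 members included) were fitted together in R 4.3.3 with limma 3.58.1 (4 group means, empirical Bayes with intensity trend, two-sided, Benjamini-Hochberg over all tested genes), with calls made below an adjusted p of 0.05. The fit was tested on simulated data with planted changes. Calls were checked there only for planted changes of about 1.5-fold or more, which are larger than the changes of the called members. An exact permutation test of 3 against 3 libraries cannot go below p = 0.1 and was not used. Replicate r was 0.985 to 0.988 over 12 pairs within groups.

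The members and gene lists were chosen with earlier results of these data known. Genes named are the 10 called members with the largest change with EpA, the 5 called members with the largest change in each direction in the other comparisons, the 3 with the smallest p for the difference between EpA effects (none being called), the 3 highest and 3 lowest in DMSO, 5 members with roles of their own (*Mrpl12*, *Mrpl10*, *Mrps12*, *Mrpl45*, *Mrpl58*), those whose symbol and subunit disagree, and the 2 largest calls in each direction of each other list. Alternatives were other pseudocounts, filters and scalings, no trend, fewer groups in the fit, a replicate block, limma voom on recovered reads, structural subunits, each library left out, and 1 added after seeing the data. Motif and neighbour searches used Python 3.11.15, and proteins were not analysed here.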

Additional observations from a re-analysis of the deposited data

How the results depend on the processing

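Over 461 recomputed counts and medians, 434 stayed within 1.5 times the count or 1 SD of the libraries, among them all of those for the number of members that rose with EpA, without fatostatin (24 to 35) and with it (20 to 35), and all member medians. The number that fell with fatostatin alone was 3 with no filter on low values, 8 with a mean of at least 1 FPKM, 1 with no intensity trend, 9 by voom, 3 with both libraries numbered 1 of the fatostatin arms left out, and 0 to 9 when single libraries were left out, and 1 member rose with TPM scaling (0 to 1 with single libraries left out). With both compounds against EpA, 18 fell under median-of-ratios scaling and 4 to 12 with single libraries left out. The large minus small subunit median ranged from 0.0102 to 0.0442 with EpA and from -0.0115 to 0.0260 with fatostatin when single libraries were left out, and was -0.0115 with fatostatin without both libraries numbered 1. The cause was not tested.

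Of 1377 recomputed values of single genes, 1228 kept direction and side of the threshold, 135 lost the call, 2 gained one and 12 changed sign. The sign changes were in members that were not called with EpA, each with single libraries left out: *Mrps24* (-0.0762 to 0.0343), *Mrps28* (-0.0302 to 0.0417), *Mrpl23-ps1* (-0.172 to 0.942), *Mrps21* (-0.0318 to 0.0701), *Mrpl10* (-0.0227 to 0.0725) and *Mrps36* (-0.0475 to 0.00649). With the replicate number as a block, 31 members rose with EpA, 6 fell with fatostatin, 12 fell with both against EpA and 27 rose with both against fatostatin. Same-numbered libraries of different groups were not paired by the data (r of their deviations -0.05 to 0.07 over 18 pairs), so they share only a number. The median SE of a member's log2 fold change was 0.05, close to the size of many of the changes, so a member that did not pass the test is not shown to be unchanged.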
